A study of Mus musculus with 8 samples.

Results

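The immunity-related GTPases (IRGs) are a mouse gene family of interferon-inducible GTPases. The 8 members described here, Irgm1, Irgm2, Igtp, Iigp1, Ifi47, Tgtp1, Tgtp2 and F830016B08Rik, were taken by name out of 20408 genes in the single-cell tables of sorted breast tumour endothelial cells (ECs), and each had a row in all 8 libraries. They were read in the 7159 of 8204 deposited cells that carried at least 1 unique molecular identifier (UMI, 1 captured transcript) of Pecam1, the gene of the CD31 antigen used in the sort.

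The cells were live, CD45-negative, CD31-positive cells of adult female mice, with 2 mice and 2 libraries in each of 4 groups. That each library held 1 mouse is not stated in the sources used here. Spontaneous tumours grew in MMTV-PyMT mice, in which the MMTV promoter drives the polyoma middle T oncogene in the mammary epithelium and not in ECs. Implanted tumours were grown from cells of such tumours that were dissociated, cultured for 2 days and placed with Matrigel in the mammary fat pad of mice without the transgene, so their vessels belong to the host. Each tumour received an intratumoural (i.t.) injection of PBS or of 3′3′-cGAMP, a cyclic dinucleotide that activates STING, and was sampled after 3 h. Groups are named by model and injection, as in implanted PBS, and the n is 2 libraries per group unless another number is given. The labels give C57BL/6 as the strain of every library and the methods describe FVB mice for both models, so the strain is not settled. Only female mice, 1 time and 1 dose were studied.

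Interferon-gamma acts on its target genes mainly through the gamma-activated sequence (GAS) and type I interferon mainly through the interferon-stimulated response element (ISRE), and IRG genes are well known targets of both routes. Their proteins act in cell-autonomous defence: effector members load onto the vacuole around parasites such as Toxoplasma and break it, while regulatory members sit on the cell's own membranes and hold the effectors inactive there. Irgm1, Irgm2 and Igtp (also called Irgm3) are the regulators, and Iigp1 (Irga6), Ifi47 (Irgd), Tgtp1 and Tgtp2 (both Irgb6) belong to the effector branch.

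The promoters are shown first because 4 of the 6 members with a promoter sequence in the reference table carry the same pair of interferon motifs side by side. Each line gives bases 110 to 21 before the annotated start, read 5′ to 3′ on the gene's strand (RefSeq sequences on GRCm38.p6, the patch release of the mm10 assembly that the authors used). The windows lie at chr11:58214867-58214956 for Irgm2 and chr11:58199446-58199535 for Igtp, both on the plus strand, and at chr11:48992267-48992356 for Tgtp1 and chr11:49064233-49064322 for Tgtp2, both on the minus strand, and none overlaps an annotated exon. Capitals mark matches to a GAS core (TTCNNNGAA) and to an ISRE core (GAAANNGAAA).
Irgm2: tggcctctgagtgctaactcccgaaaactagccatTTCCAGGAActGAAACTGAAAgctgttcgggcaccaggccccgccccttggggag
Igtp: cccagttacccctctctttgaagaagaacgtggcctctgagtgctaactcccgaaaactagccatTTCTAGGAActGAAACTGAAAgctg
Tgtp1: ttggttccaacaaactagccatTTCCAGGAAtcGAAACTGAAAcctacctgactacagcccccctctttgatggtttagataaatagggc
Tgtp2: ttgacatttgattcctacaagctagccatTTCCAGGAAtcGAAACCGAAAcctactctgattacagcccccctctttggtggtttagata

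Irgm1 held another arrangement, a pair of overlapping ISRE core matches and no GAS core in its 300 bases, and the 30 bases around them (chr11:48871427-48871456, minus strand, inside an annotated Irgm1 exon) are shown for contrast with the lines above, again with the matches in capitals.
Irgm1: tttcaaGAAATAGAAACCGAAActgattct

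The search covered both strands of 300 bases (250 before and 50 after the start) of 32851 promoters. An ISRE core was found in 1131 of them (3.44%), a GAS core in 2726 (8.30%) and both in 149 (0.454%). The GAS core followed after 2 bases by the ISRE core, an arrangement that was noticed in these sequences and then counted, was found in 5 promoters (0.0152%): those of Irgm2, Igtp, Tgtp1, Tgtp2 and Gm12185, another IRG locus, which overlaps Tgtp1. No match to either core was found in the 300 bases of Ifi47. A match is a string of letters, and binding was not measured.

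Some members cannot be counted fully apart. The reading frames of Tgtp1 and Tgtp2 were 99.7% identical and their last 300 transcript bases were 100% identical, so 3′ reads of either gene may have been lost or shared, and both values are uncertain. Igtp and Irgm2 overlap on the same strand and share 162 exonic bases, Tgtp1 shares 223 with Gm12185, and Ifi47 shares 111 with the olfactory receptor gene Olfr56. The next closest pair, Irgm2 and Igtp, had 70.9% identical reading frames, followed by Iigp1 and F830016B08Rik with 68.6%. Iigp1 and F830016B08Rik lie together on chromosome 18, whereas the other 6 members lie on chromosome 11.

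Levels are means over the Pecam1 > 0 cells of a library of each gene's UMIs as CPM, the deposited value taken back to the linear scale and set to a cell total of 1e6 UMIs. The 10 endothelial markers summed to 7156 to 8350 CPM in the 8 libraries. Depth was 9523 to 14707.5 UMIs per Pecam1 > 0 cell (median) in 7 libraries and 3049 in implanted cGAMP 1, which stood apart: 37.9% of its Pecam1 > 0 cells had fewer than 2000 UMIs, its epithelial markers summed to 2257 CPM (391 to 991 elsewhere), its immune markers to 308 CPM (21.5 to 93.4 elsewhere) and Ptprc, the gene of the CD45 antigen that was sorted against, reached 24.7 CPM (0.160 to 10.2 elsewhere). Counts of calls that rest on this library are also given without it. No doublet caller was run, and 7 cell barcodes were shared between libraries, at most 3 by any pair.

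After PBS, the regulators were low in spontaneous tumours. Irgm1, which controls the effectors on Golgi, lysosomal and mitochondrial membranes and is linked to autophagy, had 31.1 and 36 CPM in the 2 spontaneous PBS libraries, 312 and 318 after cGAMP, 213 and 117 in the implanted PBS libraries and 371 and 377 in the implanted cGAMP libraries. Irgm2, a regulator found mainly at the Golgi, had 7.06 and 8.02, 97.7 and 98.8, 63.9 and 38.8, and 126 and 123 CPM in the same order. Igtp, a regulator at the endoplasmic reticulum and on lipid droplets, had 15.4 and 17.5, 250.4 and 250.2, 217 and 112, and 439 and 347 CPM. For all 3 genes the spontaneous PBS libraries were the lowest, the implanted PBS libraries came next with the widest spread, and the implanted cGAMP libraries were the highest.

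The effector branch followed the same order. Iigp1, the effector best known for loading onto the parasite vacuole, had 113 and 111 CPM in spontaneous PBS, 965 and 1007 in spontaneous cGAMP, 1155 and 630 in implanted PBS, and 1493 and 1228 in implanted cGAMP. Ifi47, a less studied member of the effector branch, had 26.8 and 26.4, 222 and 253, 178 and 103, and 307 and 294 CPM. Iigp1 was the one member for which a PBS library (implanted PBS 1, 1155 CPM) lay above both spontaneous cGAMP libraries.

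Tgtp1 had 2.06 and 2.91, 26.1 and 28.3, 27.1 and 16.3, and 48.3 and 54.6 CPM, and Tgtp2, which encodes a nearly identical protein, had 1.65 and 2.16, 36.3 and 44.2, 25.9 and 17.2, and 66.7 and 70.7 CPM. F830016B08Rik, the relative of Iigp1 on the same chromosome, had 2.19 and 1.93, 50.6 and 64.1, 36.4 and 25.6, and 71.2 and 78.0 CPM. Summed over the 8 members, the level was 199 and 206 CPM in spontaneous PBS, 1960 and 2064 in spontaneous cGAMP, 1917 and 1060 in implanted PBS, and 2923 and 2572 in implanted cGAMP. In both models the PBS and cGAMP libraries of every member were separate, and so were the PBS libraries of the 2 models and the cGAMP libraries of the 2 models. With 2 libraries per group such separation is no test, and its share over all genes is not given here. Between the cGAMP libraries of the 2 models, only 2 of the 8 members were called in the test given below.

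**Figure D1:**
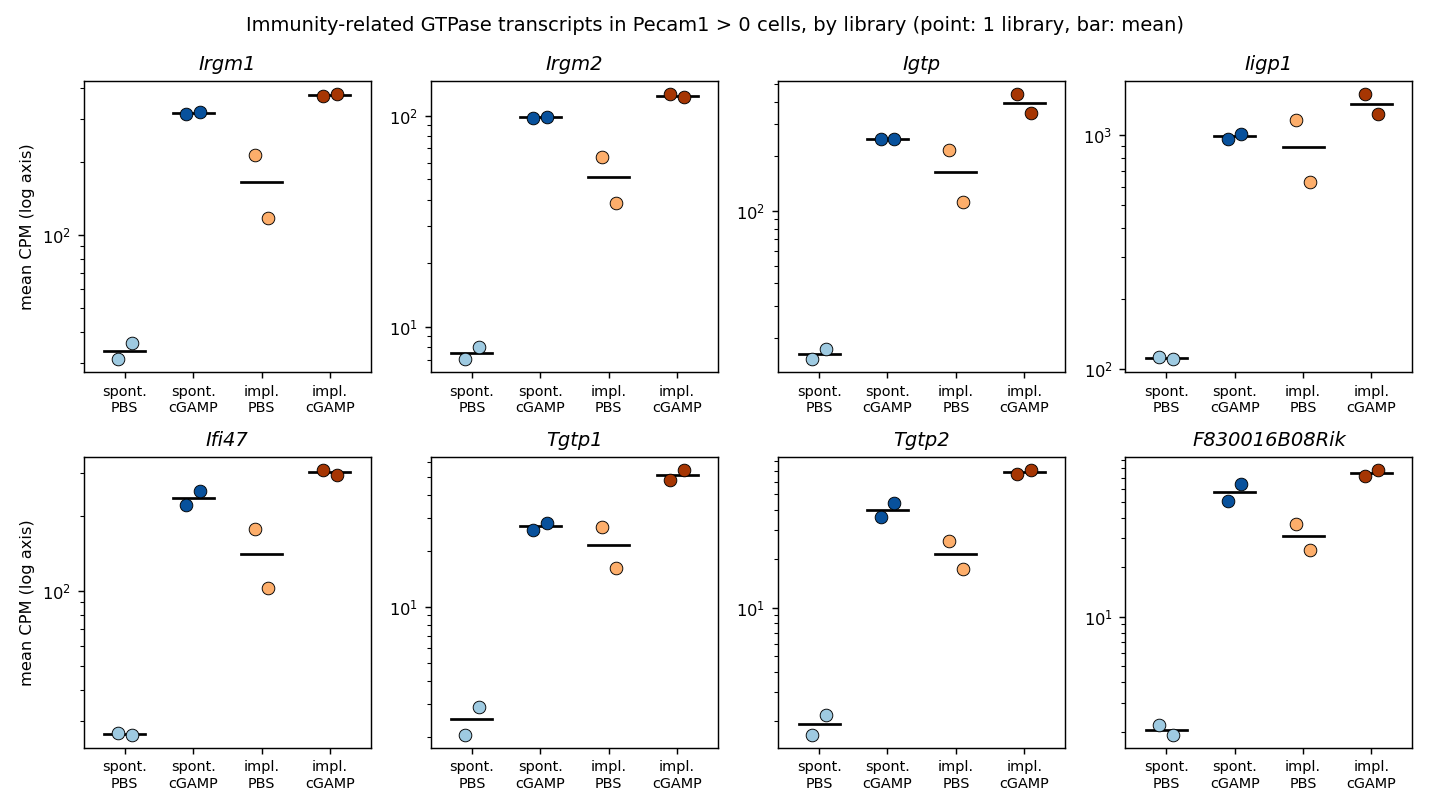
Mean CPM of each member in Pecam1 > 0 cells on a log axis, with 1 point per library and a bar at the group mean. In every panel the spontaneous PBS libraries lie lowest and the implanted cGAMP libraries highest, and the implanted PBS libraries (for Iigp1 1155 and 630 CPM) spread most.

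The first comparison asked how far cGAMP moved the members in spontaneous tumours. All 8 were higher after cGAMP by limma on log2(CPM + 1), at adjusted p-values of 6.4e-07 to 1.97e-05, where an adjusted p under 0.05 is counted as a call and 5.09% of the 10424 genes tested were called higher (531 higher and 791 lower, or 657 and 362 with median-of-ratios scaling of the libraries, under which the members' calls stood). The log2 fold changes ran from 3.02 (Tgtp1, SE 0.22) to 4.25 (F830016B08Rik, SE 0.18, a 19.0-fold rise on this scale). Igtp (3.85) and Tgtp2 (3.83) rose 14.4-fold and 14.2-fold, and Irgm1 (3.20), Iigp1 (3.13) and Ifi47 (3.11) rose 8.62- to 9.18-fold. The median was 3.37 for the members and -0.10 for all genes. The fold of a gene under about 10 CPM is understated by the added 1 CPM, so the order of the members may depend on it. Under the alternatives Tgtp1 ran from 2.10 to 3.25, Iigp1 from 3.08 to 3.27 and Ifi47 from 2.94 to 3.21, and these ranges overlap. In these sums over many cells, a higher share of expressing cells and more RNA per cell cannot be told apart.

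In implanted tumours the same injection moved the members less on the log2 scale. By the same fit 7 of 8 were higher after cGAMP, against 8.60% of all genes (896 higher and 1713 lower, or 1188 and 1109 with that scaling, under which all 8 members were called), with a median log2 fold change of 1.25 for the members and -0.10 for all genes. In limma, Tgtp2 led on this scale with 1.65 (SE 0.20, adjusted p = 0.000394), followed by Igtp (1.32), Irgm2 (1.31), F830016B08Rik (1.26), Tgtp1 (1.25), Irgm1 (1.24) and Ifi47 (1.14). Iigp1 missed the threshold, with a log2 difference of 0.67 (95% interval 0.17 to 1.16, adjusted p = 0.0532). That value turned on the implanted PBS libraries, being 1.10 (adjusted p = 0.000554) without implanted PBS 1 and 0.23 (adjusted p = 0.257) without implanted PBS 2. Without implanted cGAMP 1, the shallow library, 7 members were called again and Iigp1 stood at 0.52 (adjusted p = 0.179).

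The difference between the responses was tested as an interaction, implanted minus spontaneous, and is no independent observation beside the comparisons above because it is made from the same 8 libraries. On the log2 scale all 8 members responded less in implanted tumours, against 0.460% of all genes called lower in this test, at adjusted p-values of 0.00590 to 0.0460. In mean CPM, Tgtp1 and Tgtp2 rose more in implanted tumours, and each other member rose less. Tgtp1 went from 2.48 to 27.2 CPM in spontaneous and from 21.7 to 51.5 CPM in implanted tumours. Tgtp2 went from 1.90 to 40.3 CPM and from 21.6 to 68.7 CPM. The gap was widest for F830016B08Rik (log2 -2.99, SE 0.25), followed by Igtp (-2.53), Iigp1 (-2.46), Irgm2 (-2.24), Tgtp2 (-2.17), Ifi47 (-1.97), Irgm1 (-1.96) and Tgtp1 (-1.78). With 5 CPM added in place of 1 the estimates ran from -2.42 (Iigp1) to -0.996 (Tgtp1), and Tgtp1 and Tgtp2 lost their calls. The calls also changed with the libraries. Without spontaneous PBS 1, spontaneous cGAMP 1 or spontaneous cGAMP 2 only 1 member was called, without spontaneous PBS 2 it was 3, and without any 1 of the implanted libraries 7 or 8, with estimates between -3.23 and -1.43. With no filter on low genes, or with no mean-variance trend in the fit, 0 of 8 passed limma's adjustment although all 8 had an unadjusted p under 0.05.

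For each member this gap equals the difference between the models after cGAMP minus that after PBS, and the latter was the larger one. After PBS all 8 members were higher in implanted than in spontaneous tumours (3.39% of all genes were called higher, 353 against 463 lower, or 479 against 255 with the scaling), at adjusted p-values of 3.06e-05 to 0.000523. F830016B08Rik differed by 3.37 on the log2 scale (SE 0.18), Igtp by 3.17, Tgtp2 by 2.94, Iigp1 by 2.92, Tgtp1 by 2.67, Irgm2 by 2.57, Ifi47 by 2.31 and Irgm1 by 2.21. Mean levels in implanted PBS were 31.4% (Tgtp2) to 65.6% (Iigp1) of those in implanted cGAMP, whereas in spontaneous PBS they were 2.76% (F830016B08Rik) to 8.96% (Irgm1) of them. These calls held in all 21 alternatives. The model differs from the other in host, transgene, growth of the tumour and days in culture together, and these cannot be told apart.

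After cGAMP the models were closer. Only Tgtp1 (0.90 on the log2 scale, SE 0.22, adjusted p = 0.0297) and Tgtp2 (0.76, SE 0.20, adjusted p = 0.0331) were called higher in implanted tumours by limma, against 5.23% of all genes (545 higher and 889 lower, or 764 and 546 with the scaling). Tgtp1 and Tgtp2 cannot be counted fully apart, as said above, so their calls are not separate observations. The other 6 differed by 0.25 (Irgm1, 95% interval -0.24 to 0.73) to 0.64 (Igtp, 0.09 to 1.19). These intervals use a spread pooled over all 4 groups, so their width also takes in the widely spread implanted PBS libraries. With that spread, differences of this size were left unresolved. Both calls were lost when any 1 of the 4 cGAMP libraries was left out, implanted cGAMP 1 included, and when epithelial-like and mural-like clusters were removed. Without either implanted PBS library, which enters here only through the shared spread, 5 members were called.

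**Figure D2:**
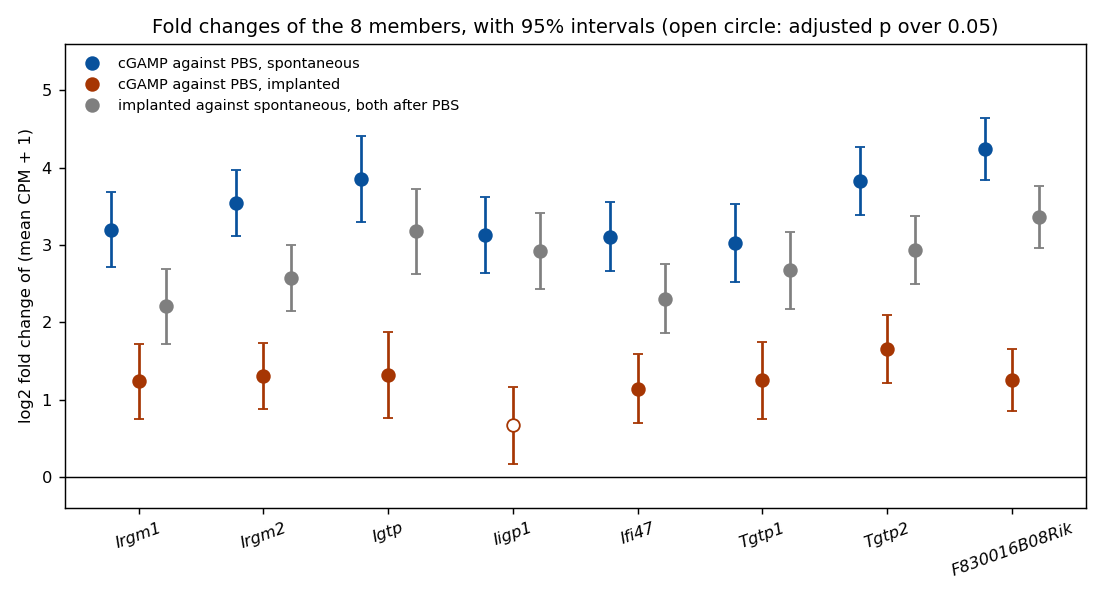
Log2 fold changes of the 8 members with 95% intervals from limma, for cGAMP against PBS in each model and for implanted against spontaneous tumours after PBS. The cGAMP response lies at 3.02 to 4.25 in spontaneous and at 0.67 to 1.65 in implanted tumours, and the difference between models after PBS at 2.21 to 3.37.

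Shares of cells were compared after every cell was drawn to 2000 UMIs, because depth differed between libraries. In spontaneous PBS 23.1% and 27.8% of cells then carried a UMI of at least 1 member, against 87.2% and 92.2% in spontaneous cGAMP, 68.2% and 57.2% in implanted PBS, and 96.5% and 95.2% in implanted cGAMP. The Wilson 95% intervals, which cover counting error only, were 24.2% to 31.7% in spontaneous PBS 2 and 54.1% to 60.2% in implanted PBS 2. No 2 groups overlapped. Before drawing, the shares were 57.5% and 66.7%, 97.6% and 97.4%, 87.7% and 81.1%, and 95.7% and 99.2%.

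Cells with UMIs of at least 4 members at once were rare in spontaneous PBS, at 0.348% and 0.361% of drawn cells. They made up 18.1% and 18.1% in spontaneous cGAMP, 14.8% and 7.89% in implanted PBS, and 32.0% and 27.4% in implanted cGAMP. Without drawing they were 3.63% and 4.83%, 73.6% and 77.3%, 48% and 33.8%, and 54.2% and 80.6%, where the low value of implanted cGAMP 1 goes with its depth. Drawing left out 22 to 102 Pecam1 > 0 cells of each library and 580 of implanted cGAMP 1.

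Iigp1 was found in the most cells, at 12.6% and 15.9% of drawn cells in spontaneous PBS, 69.1% and 75.8% in spontaneous cGAMP, 57.0% and 40.6% in implanted PBS, and 84.9% and 79.8% in implanted cGAMP. Irgm1 rose from 4.29% and 6.50% to 44.3% and 44.8% of cells in spontaneous tumours, with 29.4% and 20.5%, then 53.1% and 45.5%, in implanted tumours. These shares describe cells and were not tested. Cells without a Pecam1 UMI, 18 to 67 per library after drawing, showed a similar order, with at least 1 member in 18.2% and 18.4%, 81.1% and 66.7%, 59.1% and 40.0%, and 95.5% and 94.4%. The part of free RNA in these shares was not tested.

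**Figure D3:**
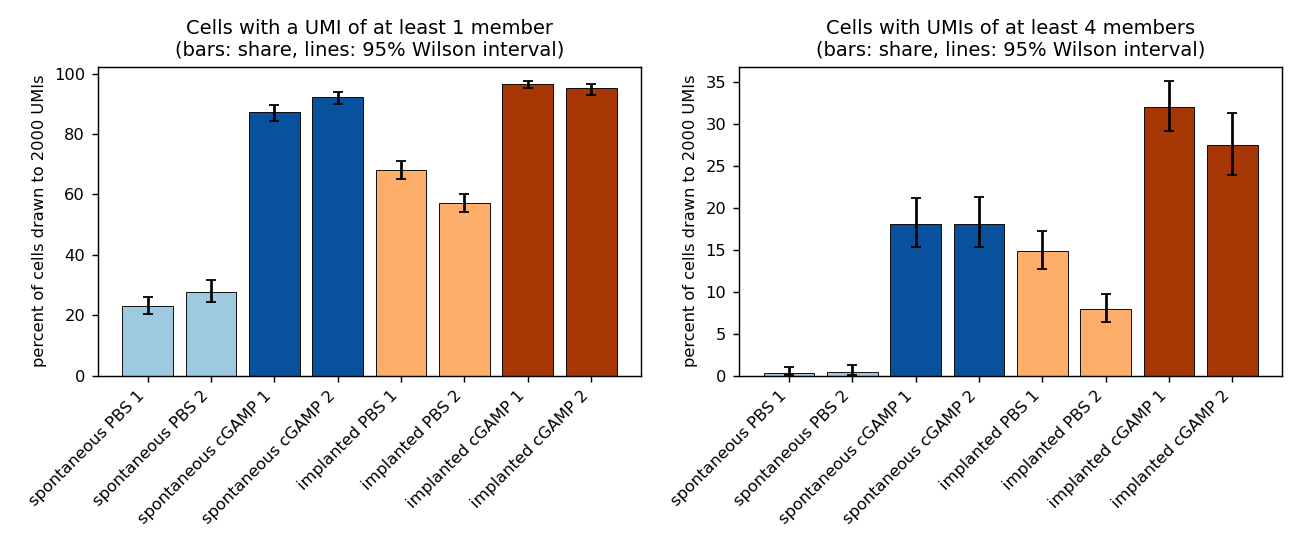
Percent of Pecam1 > 0 cells with a UMI of at least 1 member (left) and of at least 4 members (right) in each library after drawing each cell to 2000 UMIs, with Wilson 95% intervals. The left bars run from 23.1% in spontaneous PBS 1 to 96.5% in implanted cGAMP 1, and the right bars from 0.348% to 32.0%.

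Vessel classes were clusters of Pecam1 > 0 cells, formed without the members and without genes that cGAMP raised, and named from markers. Arterial-like, tip-like (sprouting front), stalk-like (postcapillary venous), lymphatic-like and proliferative-like ECs were named. The arterial-like, stalk-like and lymphatic-like classes each joined more than 1 cluster. Lymphatic-like ECs included a cluster led by Glycam1 and Ccl20, with 10 and 9 cells in spontaneous PBS and 0 and 4 in implanted PBS. Stalk-like ECs included a cluster led by Tmem108 and Ncam1, with 49 and 75 cells in implanted PBS and 16 and 6 in implanted cGAMP. Neither had a marker of its class among its 10 leading genes. What this mix did to class levels was not tested. A cluster led by Gm26917 and Moxd1 carried fewer than 3 markers of any list and was not named. A cluster led by Ptn and Ramp3 carried 5 tip-like markers, but its mean log2 difference over the whole tip-like list was below 0 (-0.46), and it was not named either. Ubd, Cd74, H2-DMa and F830016B08Rik itself were among the 10 leading genes of the Gm26917 and Moxd1 cluster, so the high level of F830016B08Rik there is no finding. The levels and responses of the other members in this cluster may also follow from how its cells were grouped, which was not tested. A library entered a class with at least 20 cells, and proliferative-like ECs had 5 such libraries, with no spontaneous cGAMP library and only implanted cGAMP 1 after cGAMP in the implanted model.

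In spontaneous tumours 44 of 48 member and class pairs were higher after cGAMP, against 2.70% of all gene and class pairs, and the 4 that were not (Irgm2, Iigp1, Tgtp1 and F830016B08Rik) were in lymphatic-like ECs. The summed level rose from 160.5 and 207 CPM to 1572 and 2023 in arterial-like ECs. It rose from 125 and 130 to 1832 and 2047 CPM in tip-like ECs, from 270 and 266 to 2574 and 2622 in stalk-like ECs, and from 93.2 and 129 to 1109 and 1382 in the Ptn and Ramp3 cluster. Lymphatic-like ECs had 1123 and 158 CPM after PBS, from 27 and 30 cells, and 2569.8 and 1872 after cGAMP, so that PBS library 1 lay far above library 2 in this class alone.

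In tip-like ECs 2 members were not seen at all after PBS in spontaneous tumours. F830016B08Rik had 0 UMIs in both spontaneous PBS libraries and 275 UMIs (60.4 CPM) after cGAMP, at least 54.0-fold higher when the PBS level is set to 3 UMIs over the group (1.12 CPM). Tgtp1 was likewise at 0 and then at 129 UMIs, at least 25.3-fold higher. In the Ptn and Ramp3 cluster F830016B08Rik went from 0 to 31 UMIs, at least 12.7-fold higher.

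In implanted tumours, over the 6 classes with 2 libraries in both groups, 27 of 48 pairs were higher after cGAMP, against 4.07% of all such pairs. All 8 members were called in arterial-like ECs and in the Ptn and Ramp3 cluster, 6 in stalk-like, 4 in tip-like and 1 (Igtp) in lymphatic-like ECs. Proliferative-like ECs had 1 library after cGAMP, implanted cGAMP 1 with 37 cells, and the fit called 4 more pairs there only by taking that library to vary like the others, which gives 31 of 56 (4.01% of all pairs). Their summed level was 2353 CPM in that library and 647 to 1026 CPM after PBS. Without implanted cGAMP 1 that class could not be fitted and 25 of 48 pairs were called. In the Gm26917 and Moxd1 cluster, with the limit on its grouping given above, limma called 0 of 8, with 0 at an unadjusted p under 0.05. The summed level there was 3991 and 2357 CPM after PBS and 3257 and 2812 CPM after cGAMP, which overlap, whereas it went from 698 and 619 to 2375 and 2425 CPM in the Ptn and Ramp3 cluster and from 1141 and 641 to 2511 and 2256 CPM in arterial-like ECs. Tip-like ECs had 2358 and 1129 CPM after PBS and 3179 and 2575 after cGAMP, and stalk-like ECs 2490 and 1646, then 3439 and 3027. The count over all pairs was 14 without implanted PBS 2 and up to 37 without another library.

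**Figure D4:**
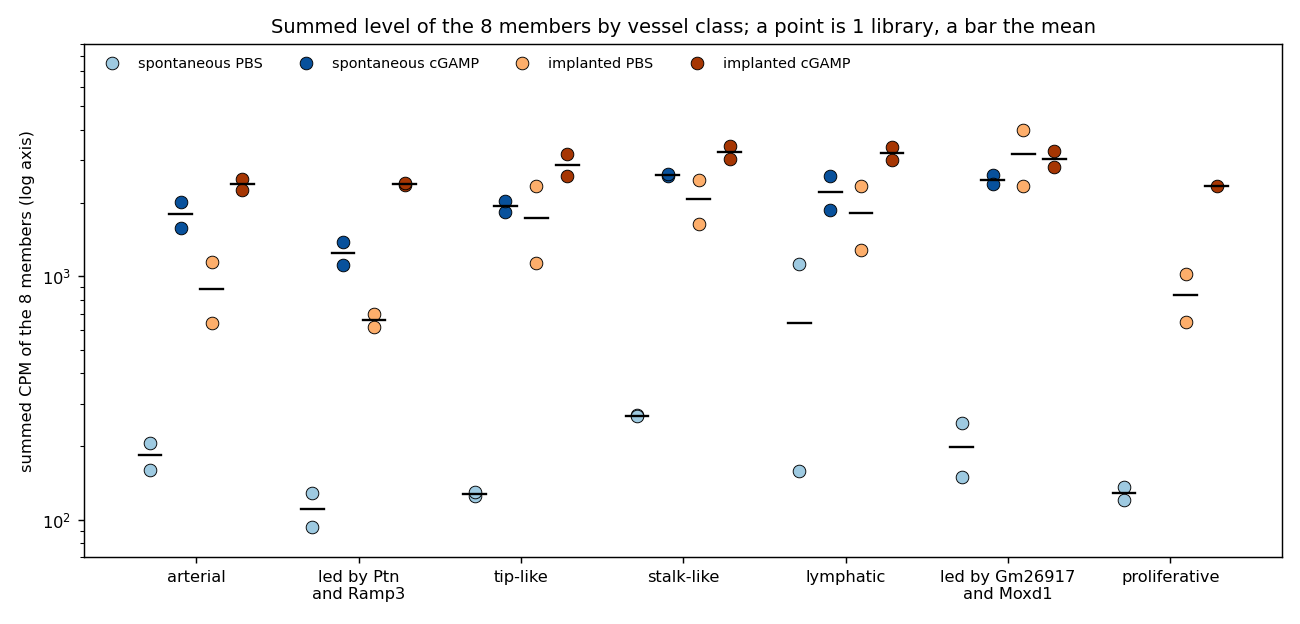
Summed CPM of the 8 members (log axis) in each vessel class, with 1 point per library of at least 20 cells and a bar at the group mean. The spontaneous PBS libraries lie between 93.2 and 270 CPM in each class except lymphatic-like ECs (1123 and 158 CPM), and in the Gm26917 and Moxd1 cluster the implanted PBS libraries (3991 and 2357 CPM) overlap the cGAMP libraries.

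The starting level also differed between models within classes. After PBS 45 of 56 pairs were higher in implanted than in spontaneous tumours, against 1.56% of all pairs, a comparison added after the class results had been seen. The counts were 8 of 8 in arterial-like, tip-like and stalk-like ECs and in the Gm26917 and Moxd1 cluster, 7 in the Ptn and Ramp3 cluster, 6 in proliferative-like ECs and 0 in lymphatic-like ECs, where 7 had an unadjusted p under 0.05. These comparisons share the PBS libraries with the responses above. The count in the Gm26917 and Moxd1 cluster is also limited by its grouping. In arterial-like ECs Iigp1 stood at 81.3 and 96.8 CPM in the spontaneous and at 643 and 333 CPM in the implanted PBS libraries, and in tip-like ECs at 38.8 and 52.3 against 1361 and 604 CPM.

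Whether a class responded differently from the other ECs of the same libraries was tested on the difference itself. In spontaneous tumours 3 of 48 pairs were called, against 0.308% of all pairs. Iigp1 (1.15 on the log2 scale, adjusted p = 0.0039) and F830016B08Rik (1.72, adjusted p = 0.0153) responded more in tip-like ECs and Ifi47 (0.99, adjusted p = 0.0047) in stalk-like ECs. The value of F830016B08Rik starts from 0 UMIs in tip-like ECs after PBS and so depends on the added 1 CPM. It was as low as 0.53 under the alternatives. Iigp1 in tip-like ECs went from 38.8 and 52.3 to 791 and 896 CPM, from a start that was the lowest of the classes with the Ptn and Ramp3 cluster (25.9 and 54.7 CPM).

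In implanted tumours 5 of 56 pairs were called, against 1.77% of all pairs. Irgm1 (-0.95, adjusted p = 0.0206) and Ifi47 (-1.39, adjusted p = 0.0106) responded less in the Gm26917 and Moxd1 cluster, Igtp (1.24, adjusted p = 0.0269) and F830016B08Rik (3.02, adjusted p = 0.0198) responded more in the Ptn and Ramp3 cluster, and Iigp1 (0.73, adjusted p = 0.0236) responded more in arterial-like ECs. The lead of F830016B08Rik rests on few counts, 1.70 and 7.79 CPM after PBS and 63.0 and 113 after cGAMP. The lower responses in the Gm26917 and Moxd1 cluster are limited by its grouping, as said above. The 8 calls of both models together became 15 when UMIs were summed and 0 with no filter on low genes. They ranged from 3 (without implanted PBS 1 or implanted cGAMP 2) to 24 (without spontaneous PBS 2), being 15 without spontaneous PBS 1, 5 without spontaneous cGAMP 1, 4 without spontaneous cGAMP 2, 7 without implanted PBS 2 and 7 without implanted cGAMP 1, so which class leads is not firmly set.

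**Figure D5:**
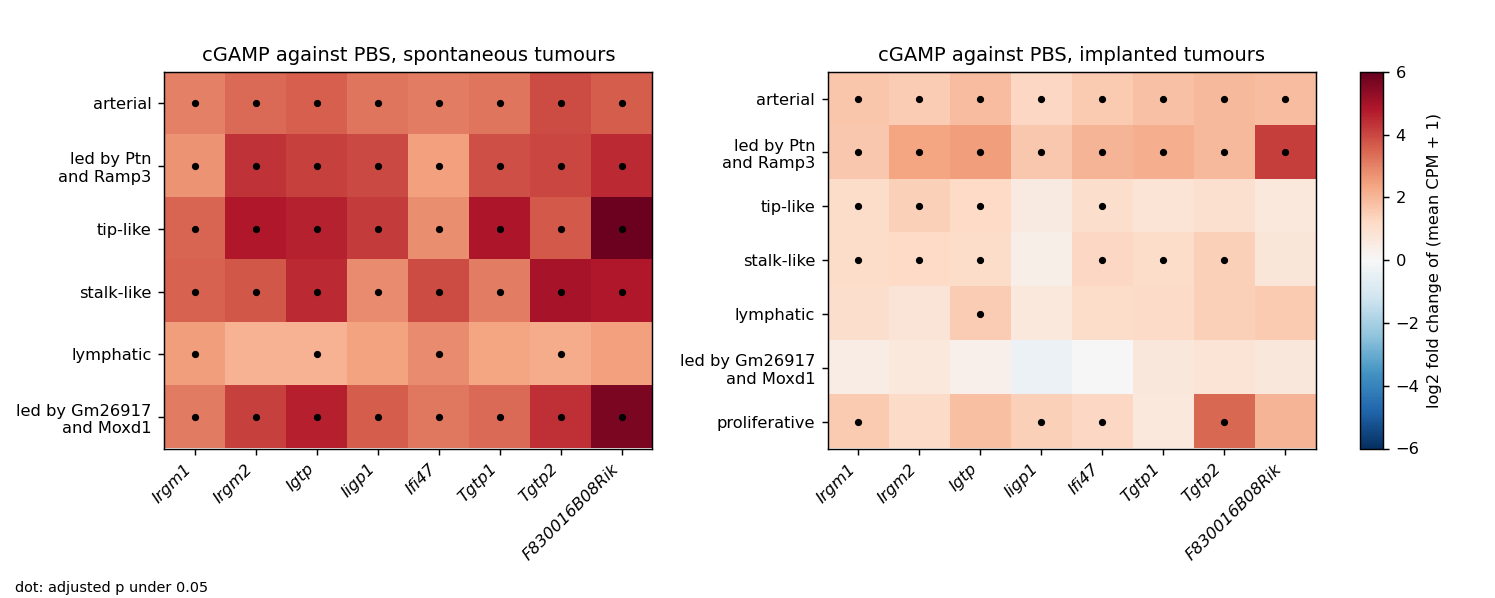
Log2 fold change of (mean CPM + 1), cGAMP against PBS, of each member in each vessel class, with a dot where the adjusted p was under 0.05. In spontaneous tumours 44 of 48 squares carry a dot, and in implanted tumours 31 of 56, with 0 in the Gm26917 and Moxd1 cluster and 4 in proliferative-like ECs, which had 1 library after cGAMP.

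Epithelial-like clusters showed the members too. They were named from Csn3, Wfdc18 and Lcn2, and yet 67.4% of cells of the larger one carried a UMI of Cdh5 and 83.8% one of Egfl7, both endothelial markers, at a median of 1555 UMIs per cell. Pecam1 > 0 cells of these clusters had summed levels of 127 and 167 CPM in spontaneous PBS, 1468 and 1531 in spontaneous cGAMP, 1545 and 742 in implanted PBS, and 2844 and 1948 in implanted cGAMP. After these and the mural-like cells were removed, all 8 members were called in both responses, in their difference and in the comparison of the models after PBS. Without those clusters the members' median log2 fold changes were 3.42 and 1.22 for the responses and 2.86 for the models after PBS, whereas Tgtp1 and Tgtp2 lost their calls after cGAMP.

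The remaining IRG loci were read from a fixed list of 10. Irgc1 was listed at 0 and Gm12250 and Irgc were not analysed here. Of the 7 tested, 5 rose in each model after cGAMP: Gm4951, Gm4841, Gm5431, 9930111J21Rik2 and Gm12185. Over all genes 5.09% rose in spontaneous and 8.60% in implanted tumours. Gm4951 followed the members, from 5.84 to 134 CPM in spontaneous tumours (log2 4.31) and from 69.2 to 206 in implanted tumours (1.64), and was the one locus of the list called in the test of the difference of responses by limma (-2.67, adjusted p = 0.0210). Gm4841 had log2 changes of 2.33 and 1.44, with a difference of -0.89 that was not called. Gm5431 had mean levels of 0.211 and 0.492 CPM after PBS in spontaneous and implanted tumours, a difference that was not called at this low level, and 10.9 and 16.6 CPM after cGAMP, with log2 changes of 3.28 and 3.54. 9930111J21Rik1 had 2.24 and 3.26 CPM in spontaneous and 3.13 and 5.75 CPM in implanted tumours and was not called. Irgq, a distant family member, had 12.1 and 9.32 CPM in spontaneous and 8.87 and 7.14 CPM in implanted tumours and was not called.

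The guanylate-binding proteins, large GTPases that work with IRGs on the vacuole, moved in the same direction. All 10 tested were higher after cGAMP in spontaneous tumours (median log2 fold change 3.19), 8 in implanted tumours (median 1.27) and 10 after PBS in implanted against spontaneous tumours, while 4 responded less on the log2 scale in implanted tumours. The 4 were Gbp2 (-2.75), Gbp5 (-2.36), Gbp3 (-1.87) and Gbp7 (-1.47). In the order of these counts, the shares over all genes were 5.09%, 8.60%, 3.39% and 0.460%.

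Of the 8 tested genes of the interferon-gamma arm, 4 were higher in spontaneous tumours after cGAMP, against 5.09% of all genes. In implanted tumours 5 were higher and 1 lower, against 8.60% and 16.4% of all genes. The feedback inhibitor Socs1 rose by 2.03 and 1.44 on the log2 scale and the transcription factor Irf1 by 0.97 and 0.55. After PBS Socs1 (1.36) and Irf1 (0.84) were higher in implanted tumours. Over all deposited cells, Ifng itself had 0 and 0 UMIs in spontaneous PBS and 1 and 0 in spontaneous cGAMP. It had 25 and 3 UMIs in implanted PBS and 15 and 3 in implanted cGAMP, so its level in these sorted cells was hardly measurable.

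Of the 7 tested genes of the type I interferon arm, 3 were higher in each model, against 5.09% of all genes in spontaneous and 8.60% in implanted tumours. The receptor chain Ifnar1 (-0.53) was lower in implanted tumours, where 16.4% of all genes were called lower. Irf7, the amplifier of type I interferon, rose from 23.7 to 1407 CPM in spontaneous tumours (5.85) and from 81.0 to 1407 CPM in implanted tumours (4.12). Stat2 rose by 2.26 and 1.62 and Irf9 by 1.72 and 0.82. After PBS Irf7 (1.72), Stat2 (0.87) and Irf9 (0.67) were higher in implanted tumours. In the test of the difference of responses by limma, Irf7 (-1.72) and Irf9 (-0.91) were called lower, against 0.460% of all genes. There 0 of the 8 genes of the interferon-gamma arm were called, with 2 at an unadjusted p under 0.05, and the arms were not compared. Ifnb1 had 0 to 16 UMIs per library. Tmem173, the gene of STING, had 72.8 to 129 CPM.

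Partners that guide IRGs to vacuoles were read from 2 lists. Of 10 genes of ATG8 conjugation, 1 was higher in spontaneous tumours (Gabarap, 0.26), where 5.09% of all genes were called higher. In implanted tumours 2 were lower (Map1lc3a, -0.47, and Map1lc3b, -0.24, a call that was lost under median-of-ratios scaling), where 16.4% of all genes were called lower. For a list of 10 genes these counts lie near the shares over all genes. Of 3 ubiquitin and p62 partners, 1 was higher in spontaneous and 2 in implanted tumours, against 5.09% and 8.60% of all genes. Trim21, an interferon-inducible ubiquitin ligase, rose by 1.62 and 1.46, and Sqstm1, the gene of p62, rose by 0.71 in implanted tumours. The remaining gene of this list was not called in either model.

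Over the 8 libraries, the 5 genes outside the family whose profile lay closest to the median profile of the members, by root mean square distance on the log2 scale among 8364 candidates of at least 10 CPM, were Nlrc5 (0.183), Gbp3 (0.185), Tap1 (0.245), Apol10b (0.259) and H2-Q7 (0.262). The members' own distances were 0.0683 (Irgm2) to 0.341 (F830016B08Rik). Nlrc5, the transactivator of MHC class I genes, had 2.15 and 1.28, 24.3 and 30.5, 19.9 and 13.8, and 36.5 and 39.4 CPM in the 4 groups. Tap1, a subunit of the peptide transporter for MHC class I, had 32.4 and 27.5, 231 and 238, 195 and 102, and 335 and 315 CPM. The libraries of these genes fell in the same order of groups as those of the members, which follows from choosing the genes by this distance.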

How the data were processed

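Live CD45-negative, CD31-positive cells from breast tumours of 2 mice in each of 4 groups were made into 8 10x 3′ libraries. Per the labels and the submitters' processing notes, reads were mapped to mm10 with Cell Ranger 3.0.0 and handled in Seurat 3.1.1. The authors removed cells with fewer than 500 genes or over 10% mitochondrial UMIs, and deposited natural log values per cell, ln(1 + UMIs × 10000 / total UMIs of the cell). UMIs worked back from them came out whole for 100% of values within a tolerance of 0.01. How the deposited cells were selected beyond these filters is not given in the sources used here. 0 columns were left unused.

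Groups were taken from the labels. The members and gene lists were chosen with earlier results of these data known. Members were the 8 genes. From each pathway list at most 4 called genes with the largest absolute change are named, all other IRG loci of a list are named, and the 5 nearest profiles are named. One gene that this rule would name is not reported here. Levels are means of linear CPM over Pecam1 > 0 cells, drawn from 94908667 UMIs in all, which sets the counting precision. Because the values are normalised, limma 3.58.1 (R 4.3.3) was fitted to log2(CPM + 1) of the genes that reached 5 CPM in 2 or more libraries, all 8 libraries in one fit, with a mean-variance trend, Benjamini-Hochberg adjustment over all genes and a threshold of 0.05. Its p-values rest on the spread between the 2 libraries within a group, pooled over the 4 groups and moderated across genes. That spread may be technical if the libraries are not separate mice. Replicate numbers of the labels did not pair the libraries. Vessel classes came from Seurat 5.3.0 (2500 variable features, 30 principal components, resolution 0.5), with 927 genes kept out of the clustering, names from at least 3 markers and a positive mean over the marker list, and classes of at least 20 cells per library, each class fitted separately. Alternatives changed the pseudocount, filter, scaling, cells, trend, clustering resolution or replicate block, or left out 1 library. Scripts were tested on simulated data. Promoters were read from a RefSeq table and gene models from GENCODE.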

Additional observations from a re-analysis of the deposited data

Results flagged for a closer look

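The response to cGAMP differed between the models for each of the 8 members, by an interaction test in limma across all genes. The difference, implanted minus spontaneous on the log2 scale, was -1.96 for Irgm1, -2.24 for Irgm2, -2.53 for Igtp, -2.46 for Iigp1, -1.97 for Ifi47, -1.78 for Tgtp1, -2.17 for Tgtp2 and -2.99 for F830016B08Rik. The implanted PBS libraries had both the higher starting level and the widest spread, with summed levels of 1917 and 1060 CPM.

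The response of a vessel class differed from that of the other ECs of the same libraries for 8 pairs. In spontaneous tumours it was larger by 1.15 for Iigp1 and by 1.72 for F830016B08Rik in tip-like ECs and by 0.99 for Ifi47 in stalk-like ECs. The 1.72 starts from 0 UMIs after PBS and was as low as 0.53 under the alternatives. In implanted tumours the class response was larger by 0.73 for Iigp1 in arterial-like ECs and by 1.24 for Igtp and 3.02 for F830016B08Rik in the cluster led by Ptn and Ramp3. The class response was smaller in the cluster led by Gm26917 and Moxd1, with -0.95 for Irgm1 and -1.39 for Ifi47. The leading genes of that cluster included F830016B08Rik, and what its grouping did to these values was not tested.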

How the results depend on the processing

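Members were called higher after cGAMP in spontaneous tumours (8) and in implanted against spontaneous tumours after PBS (8) under each of 21 alternatives, and in implanted tumours 7 or 8 were called. No called value changed sign under any alternative run. The smaller log2 response in implanted tumours (8 called) fell to 0 with no filter on low values and to 0 with no mean-variance trend (8 had an unadjusted p under 0.05 in both), and ranged from 1 to 8 when 1 library was left out (6 with a pseudocount of 5 CPM). The comparison of the models after cGAMP (2 called) gave 0 with no filter, with no trend and without the epithelial-like and mural-like clusters (2, 2 and 3 at an unadjusted p under 0.05), 1 with UMIs summed per library, 1 with all deposited cells, 1 with cells of at least 2000 UMIs, and 0 to 5 with 1 library left out. Within vessel classes, the 31 calls in implanted tumours ranged from 14 to 37 with 1 library left out. The 8 calls of a class against the other ECs became 15 with UMIs summed and 0 with no filter, and ranged from 3 to 24 with 1 library left out. Where no value shows it, the cause was not tested. Over all genes, the calls ranged from 448 to 2839 (1322 as reported) for cGAMP in spontaneous tumours, from 1265 to 3722 (2609) in implanted tumours, from 0 to 171 (69) for the difference, from 212 to 1317 (816) after PBS and from 156 to 2069 (1434) after cGAMP.

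The replicate numbers did not pair the libraries (correlations of same-numbered deviations -0.216 to 0.126), and with the replicate block 8, 8, 7, 8 and 2 members were called in the 5 comparisons. Tgtp1 left the difference and Iigp1 joined the implanted response. Spontaneous PBS 1 and spontaneous cGAMP 1 had the correlation of -0.216, and with the numbers crossed, a fit added after seeing the data, the block gave 8, 8, 7, 8 and 2 calls. Depth limits Tgtp1, Tgtp2 and F830016B08Rik most, which had 14 to 25 UMIs each in spontaneous PBS 1.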
